A study of Mus musculus with 20 samples.

Results

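The nuclear genes of the mitochondrial respiratory chain and ATP synthase were read on 20 arrays of mouse hippocampal neurons treated with NMDA receptor antagonists. They were taken by name, as every non-control probe whose gene name in the scanner output begins with Nduf followed by a, b, c, s or v, with Uqcr, with Cox4 to Cox8 or with Atp5, or is Sdha, Sdhb, Sdhc or Sdhd. The rule uses names and no measured value, though genes, lists and tests were chosen with earlier results of these data known. It gave 82 of the 27962 gene names on the array: 35 subunits of complex I, 4 of complex II, 7 of complex III, 17 of complex IV and 15 of complex V. The remaining 4 carry a matching name but are not core or accessory subunits. They are Ndufaf1, an assembly factor of complex I, Cox7a2l, which joins complexes III and IV into supercomplexes, Atp5s (Dmac2l in RefSeq) and Cox4nb (Emc8 in RefSeq), a gene beside Cox4i1 that encodes a protein of the endoplasmic reticulum. Ndufa4, named for complex I, was counted with complex IV, where its product is now placed. Of the 82 genes, 81 were bright enough to be tested, and Cox8c, a testis isoform, was not.

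Oxidative phosphorylation passes electrons from NADH (complex I) and succinate (complex II) through ubiquinone, complex III and cytochrome c to oxygen at complex IV, and the proton gradient built on the way drives ATP synthesis by complex V. Neurons rely on it to pay for ion pumping after synaptic activity. Most subunits are encoded in the nucleus and carry the names read here. The few encoded in mitochondrial DNA carry other gene names and were not part of the choice. Cyc1, a nuclear gene of complex III, also has another name and is read below among the electron carriers.

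Dissociated hippocampal neurons had been 21 days in culture and were exposed for 24 h to 100 µM AP5, a competitive antagonist of NMDA receptors, to 100 nM NVP-AAM077 (NVP), an NMDA receptor antagonist, to 1 µM of the compound that the labels call Ro25-4891 (Ro25), or to vehicle (control). Each group held 5 arrays. The RNA of a culture (Cy5) was hybridised with a universal mouse reference RNA (Cy3), so each value is a log2 ratio of sample over reference. Dyes were not swapped, and a level against the reference therefore carries any dye bias, which a difference between groups does not. Nothing given with the samples tells whether the 5 arrays of a treatment are different cultures, and the p-values then cover only array-to-array spread, possibly technical. RNA came from whole cultures, in which fewer cells of a type and less RNA per cell cannot be told apart.

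Between 58.6 and 69.4% of an array's probes exceeded background clearly in the sample channel, and arrays of one group correlated at 0.97 to 0.99 over the tested genes. All 12 neuron markers and all 12 astrocyte markers looked for were measured, so the cultures held RNA of both kinds of cell. None of the 24 passed the test against control with any antagonist. With AP5, 9 of the 12 neuron markers lay below control (median difference −0.12) and 3 of the 12 astrocyte markers (median 0.04). The first AP5 array stood apart: its neuron markers had a median deviation of −0.74 from their means over the 20 arrays, its astrocyte markers one of −0.77 and its oligodendrocyte markers one of −0.70, against −0.21 to 0.24, −0.41 to 0.30 and −0.16 to 0.40 on the other 19 arrays. Without this array, 7 neuron markers (median −0.011) and 0 astrocyte markers (median 0.27) lay below control, and the neuron marker Stmn2 passed at 0.22 (limma adjusted p = 0.0458). The part of this in the members' differences was not tested. The called genes and each complex's count of genes below control are given with and without the array. The arrays lay on 7 slides, none of which held AP5 or NVP arrays together with control arrays. Slide and treatment can therefore be separated for AP5 only through the NVP and Ro25 arrays. The first AP5 array was scanned on day 2, on slide 6 with the second Ro25 array. The third AP5 array was scanned on day 3, alone on slide 7. All control and NVP arrays were scanned on day 1, so a later scan day cannot be told apart from treatment against them.

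The promoters of the 5 subunit genes that passed the test in any comparison are shown first, since these genes carry the calls. The windows run from 250 bases before to 50 bases after the annotated start farthest upstream, on RefSeq's GRCm38.p6, 5′ to 3′ on the strand of the gene. Capitals mark exact matches on either strand to CGCATGCG (the palindromic core of the site of NRF1, a regulator of mitochondrial genes), CCGGAAG (an ETS site, the kind that GABP binds), AAGATGGC (a YY1 site), GGGCGG (a GC box) and TGACGTCA (a cAMP response element).
Atp5d (chr10:80142025-80142324, plus strand): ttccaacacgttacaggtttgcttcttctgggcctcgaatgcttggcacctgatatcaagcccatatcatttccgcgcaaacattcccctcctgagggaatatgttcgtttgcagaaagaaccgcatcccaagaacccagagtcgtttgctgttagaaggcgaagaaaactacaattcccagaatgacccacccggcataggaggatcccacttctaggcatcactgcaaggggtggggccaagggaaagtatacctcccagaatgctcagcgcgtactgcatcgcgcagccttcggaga
Atp5k (chr5:108434350-108434649, minus strand): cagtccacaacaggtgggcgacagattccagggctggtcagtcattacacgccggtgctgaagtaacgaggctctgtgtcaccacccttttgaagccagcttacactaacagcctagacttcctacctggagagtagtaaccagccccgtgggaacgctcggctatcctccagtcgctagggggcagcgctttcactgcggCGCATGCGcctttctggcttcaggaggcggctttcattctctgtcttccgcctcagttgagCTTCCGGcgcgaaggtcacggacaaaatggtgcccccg
Ndufc2 (chr7:97399753-97400052, plus strand): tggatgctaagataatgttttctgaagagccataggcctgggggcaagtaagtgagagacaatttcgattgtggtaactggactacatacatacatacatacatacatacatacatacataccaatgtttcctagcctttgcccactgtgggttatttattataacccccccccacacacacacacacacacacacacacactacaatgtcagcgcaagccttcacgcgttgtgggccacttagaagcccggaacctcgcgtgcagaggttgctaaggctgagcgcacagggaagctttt
Ndufa5 (chr6:24527641-24527940, minus strand): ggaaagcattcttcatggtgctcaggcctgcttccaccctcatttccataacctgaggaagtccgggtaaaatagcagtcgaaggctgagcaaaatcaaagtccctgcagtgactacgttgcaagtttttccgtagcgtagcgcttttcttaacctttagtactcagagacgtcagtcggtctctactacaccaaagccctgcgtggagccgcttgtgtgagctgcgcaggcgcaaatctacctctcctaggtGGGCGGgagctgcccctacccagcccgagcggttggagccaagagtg
Ndufv1 (chr19:4012706-4013005, minus strand): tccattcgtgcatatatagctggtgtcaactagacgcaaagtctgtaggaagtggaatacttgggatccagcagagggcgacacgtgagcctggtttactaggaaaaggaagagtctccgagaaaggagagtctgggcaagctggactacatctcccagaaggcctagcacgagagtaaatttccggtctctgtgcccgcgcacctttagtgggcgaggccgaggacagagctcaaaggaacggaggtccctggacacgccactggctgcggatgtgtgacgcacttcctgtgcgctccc

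Only the Atp5k and Ndufa5 windows among these hold a match: Atp5k an NRF1 core and an ETS site, Ndufa5 a GC box. RefSeq's table held 72 windows of 67 of the 82 genes. An NRF1 core stood in 9 of the 72 (12.5%), those of Atp5g2, Atp5j, Atp5k, Atp5l, Cox6a1, Ndufa8, Ndufa11, Uqcr and Uqcrc1, against 1.87% of all 32851 windows of this length. The ETS site stood in 17 (23.6%, against 8.86% of all windows) and the YY1 site in 10 (13.9%, against 2.75%). Of the YY1 matches 7 were in complex I genes and 3 in complex V genes. The response element stood in 4 windows (5.56%, against 1.79%), those of Ndufa10, Ndufa11, Ndufb2 and Uqcrfs1, and the GC box in 29 (40.3%, against 35.7%). The motifs share no letters where they were found side by side in the windows shown, and a match describes the letters only.

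With AP5, 2 of the 81 tested genes fell against control and none rose. They were Atp5d, the delta subunit of the F1 part of ATP synthase, which sits in the stalk that turns inside the catalytic head, and Ndufc2, an accessory subunit of the membrane arm of complex I. Atp5d fell by 20.4% and Ndufc2 fell by 19.5% of the control level on the linear scale. The count is not above the array's: of all 19359 genes, 6.11% were called in this comparison, 2.53% higher and 3.58% lower. An unadjusted p under 0.05 was found for 17.8% of all genes and for 14 of the 81 genes. No subunit differed from control by more than 0.5 on the log2 scale with any antagonist.

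Atp5d had log2 ratios of −0.14, 0.04, −0.04, −0.03 and −0.02 on the AP5 arrays, against 0.32, 0.26, 0.27, 0.41 and 0.20 on the control arrays. Every AP5 array lay below every control array. The difference was −0.33 (SE 0.068, 95% interval −0.47 to −0.19, limma adjusted p = 0.00502), and −0.30 without the first AP5 array (limma adjusted p = 0.0136). With NVP the ratios were 0.39, 0.33, 0.42, 0.44 and 0.16, and with Ro25 they were 0.31, 0.02, 0.22, 0.03 and 0.18. The NVP arrays overlapped the control arrays, and the Ro25 arrays were spread from just above zero, near the AP5 arrays, up into the control range. Its 60-base probe lies on chromosome 10 at 79926336 to 79926395 (plus strand) in the array design's build mm7, of which no gene annotation was used here.

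Ndufc2 had 1.5, 1.78, 1.75, 1.67 and 1.92 on the AP5 arrays, against 1.94, 2.01, 1.89, 2.10 and 2.25 on the control arrays, a difference of −0.31 (SE 0.086, 95% interval −0.49 to −0.14, limma adjusted p = 0.0319). The groups met at one point, where the fifth AP5 array exceeded the third control array. Without the first AP5 array, the lowest, the difference was −0.26 and no longer passed (limma adjusted p = 0.0806). Leaving out AP5 array 3 or 4 or control array 2, 4 or 5 also ended the call, with limma adjusted p between 0.0535 and 0.0951 over these 6 arrays. The call was also lost with the scanner's signals (limma adjusted p = 0.180), in the authors' value table (0.0615), on the first scan day (0.157), with only the 2 groups in the fit (0.0975) and under median centring (0.971). With slide as a fixed block, which no pair of AP5 and control arrays shares, Ndufc2 differed by 0.0015 and Atp5d by −0.34, and neither passed (limma adjusted p = 0.998 and 0.343).

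**Figure D1:**
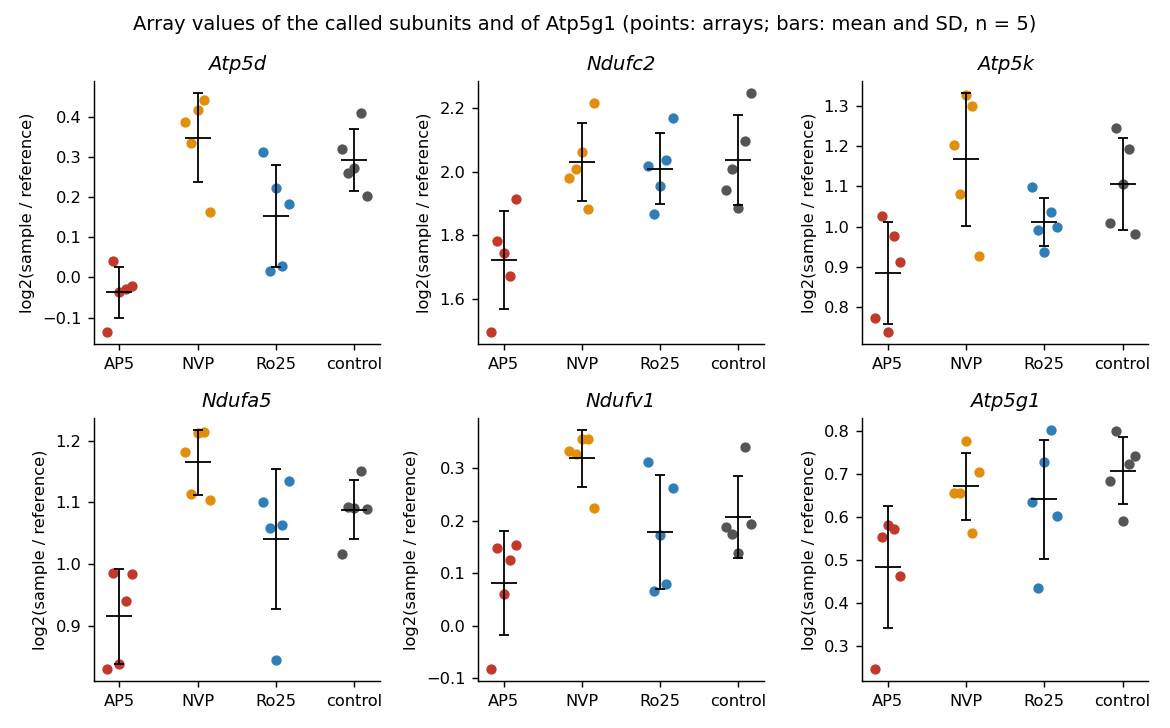
Log2 ratio of sample over reference on each array for the 5 subunit genes that passed in any comparison and for Atp5g1, with groups AP5, NVP, Ro25 and control from left to right, points for arrays and bars for mean and SD (n = 5). The AP5 points of Atp5d, from −0.14 to 0.04, lie below all control points, from 0.20 to 0.41.

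Complex V, which makes ATP from ADP, had the lowest median difference with AP5, −0.10 over its 15 genes, of which 14 were below 0. Without the first AP5 array the median was −0.054, with 13 of 15 below 0. With the scanner's own processed signals in place of loess it was −0.019, with 8 below 0, and with arrays centred on their median 0.065, with 4 below 0. Of all tested genes, 53.4% were below 0 with AP5, 48.5% without the first AP5 array, 47.8% with the scanner's signals and 36.2% under median centring. The other subunits of the F1 head of complex V were nearer to control: Atp5c1 (gamma) differed by −0.10, Atp5b (the catalytic beta) by −0.10, Atp5e (epsilon) by −0.10 and Atp5a1 (alpha) by −0.02, with limma adjusted p from 0.530 to 0.949. Atp5g1, one of the genes for the c subunit of the rotating ring, had 0.25, 0.55, 0.58, 0.57 and 0.46 on the AP5 arrays, against 0.69, 0.80, 0.59, 0.72 and 0.74 on the control arrays. Its groups just failed to overlap, at 0.58 and 0.59, and its difference of −0.22 did not pass (limma adjusted p = 0.0930). Atp5k, a small membrane subunit, differed by −0.22 (limma adjusted p = 0.123), with groups that overlapped. Atp5j, of the peripheral stalk, was the gene above 0, at 0.12 (limma adjusted p = 0.362).

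In complex I, 27 of 35 genes were below 0 with AP5 and the median difference was −0.05. Without the first AP5 array the median was −0.027, with 24 below 0, and it turned to 0.0055 with the scanner's signals (15 below 0) and to 0.10 under median centring (3 below 0). Ndufa5, an accessory subunit of the matrix arm, had 0.83, 0.99, 0.84, 0.94 and 0.98 on the AP5 arrays, against 1.02, 1.09, 1.09, 1.15 and 1.09 on the control arrays. No AP5 array reached a control array, but the difference of −0.17 did not pass (limma adjusted p = 0.0987). Ndufa6, a matrix arm subunit of the LYR protein family, was the largest positive difference, 0.18 (limma adjusted p = 0.150). Among subunits that carry electrons through the matrix arm, Ndufs1, Ndufs7, Ndufs8, Ndufv1 and Ndufv2 ranged from −0.13 (Ndufv1) to 0.05 (Ndufs1), and none passed.

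Complex II, succinate dehydrogenase, had 2 of 4 genes below 0, with or without the first AP5 array. Sdhb, its iron-sulfur subunit, differed by −0.18 (limma adjusted p = 0.276), Sdha, the flavin subunit, by 0.07 and Sdhd, a membrane anchor, by 0.08. In complex III, 6 of 7 genes were below 0, led by Uqcrq, a small accessory subunit, at −0.18 (limma adjusted p = 0.176), against 4 without the first AP5 array, 2 with the scanner's signals and 1 under median centring. Uqcrc2, a core subunit, stood at 0.08 and Uqcrfs1, the Rieske iron-sulfur protein, at −0.08. In complex IV, 14 of 16 tested genes were below 0 (median −0.08), against 11 without the first AP5 array (median −0.04), 7 with the scanner's signals (median 0.01) and 4 under median centring (median 0.07). Among them was Cox5b, which binds zinc, at −0.16 (limma adjusted p = 0.200). Of the 4 genes that are no subunits, Atp5s stood at 0.14, Ndufaf1 at 0.06, Cox7a2l at 0.02 and Cox4nb at −0.19, and none passed.

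**Figure D2:**
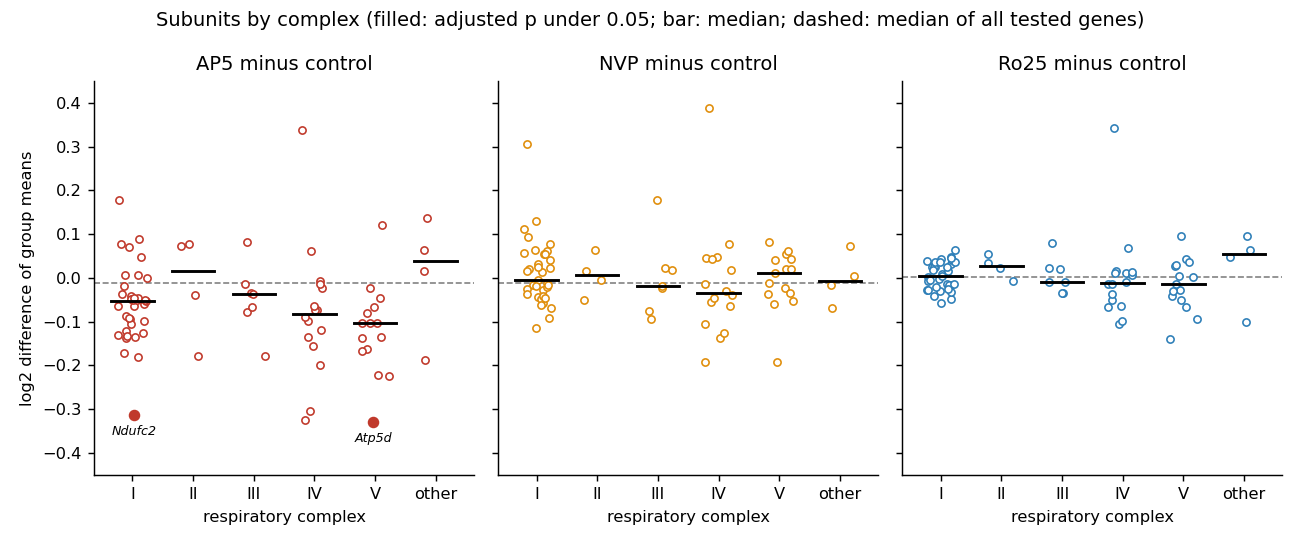
Log2 difference of group means from control for each tested gene, by complex, with AP5, NVP and Ro25 from left to right, filled points for an adjusted p under 0.05, black bars for medians and a dashed line for the median of all tested genes. With AP5 the median is −0.10 in complex V and −0.05 in complex I, both above 0 under median centring and the first still below 0 with the scanner's signals; 2 points are filled with AP5 and none with NVP or Ro25.

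Over all 81 genes the median difference with AP5 was −0.067, against −0.012 over all tested genes, and 64 (79.0%) were below 0, against 53.4% of all genes. That direction depended on how the arrays were scaled. With the scanner's signals the median was 0.0083 with 35 of 81 below 0, and under median centring it was 0.099 with 14 of 81 below 0. All genes then had medians of 0.011 and 0.061, with 47.8% and 36.2% below 0. Without the first AP5 array the members' median was −0.034, with 55 of 81 below 0, against 0.0051 and 48.5% for all genes. With slide as a fixed block it was 0.0057, against −0.047 for all genes. The counts below 0 per complex are to be read against the same shares of all genes. For 5 of the 81 genes every AP5 array lay below every control array (Atp5d, Atp5g1, Ndufa5, the complex I accessory subunit Ndufb8 and the peripheral stalk subunit Atp5f1), against 3.91% of all genes.

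The array values behind that median were uneven. Per array, the genes' median deviation from their means over the 20 arrays was −0.19, −0.05, 0.0030, −0.0044 and −0.02 with AP5, against −0.038, 0.121, −0.041, 0.020 and 0.015 in control. The first AP5 array was lowest of all 20, and the other 4 lay within the control range but for the second. It was also the lowest for complex V alone, at −0.28, and for the neuron and astrocyte markers. Whether the first AP5 array differed in cell composition was not tested. Nor was the part of composition, slide or scan day in the result. The highest array was the fourth of Ro25, at 0.170, followed by the second of control.

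**Figure D3:**
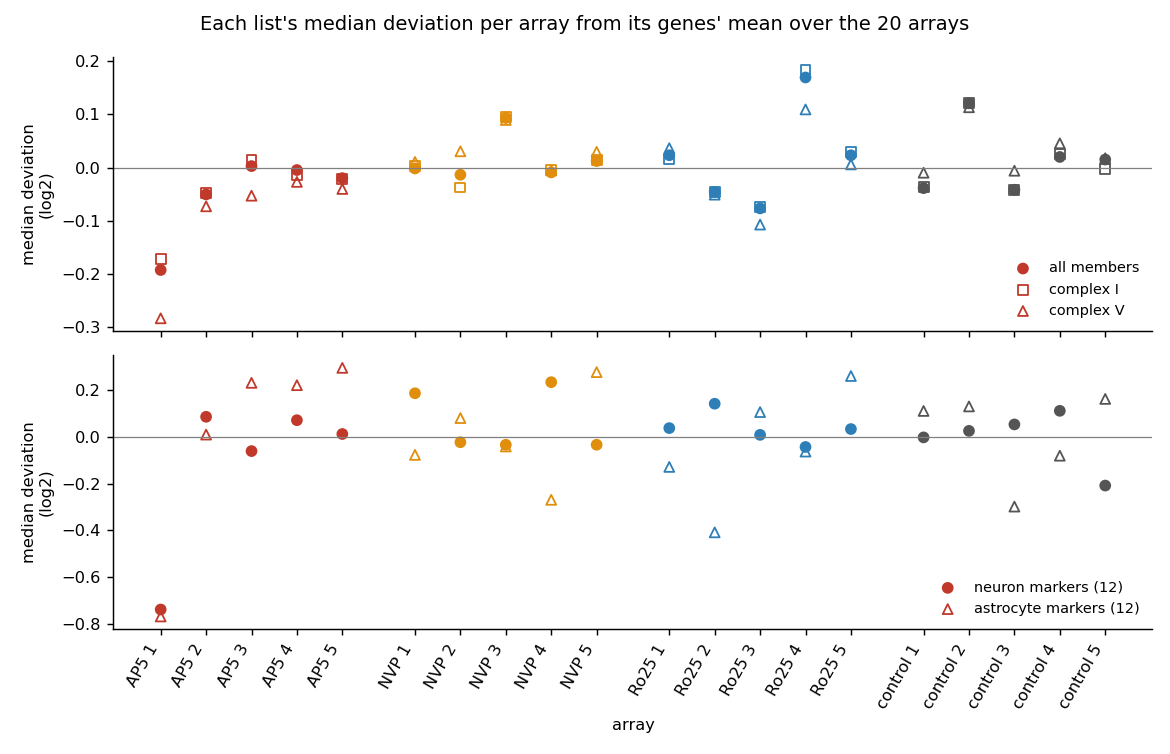
Median deviation of each gene list on each of the 20 arrays from its genes' means over all arrays (log2), with all members, complex I and complex V above and neuron and astrocyte markers below, groups in the order AP5, NVP, Ro25 and control. The first AP5 array is lowest in both panels, at −0.19 for all members and −0.74 for neuron markers.

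The subunits varied together within groups. After removing group means, pairs of members had a mean correlation of 0.323 over the 20 arrays, against 0.018 for pairs of genes of the whole array. The arrays share their reference, slides and scaling, so this is given as a description. By complex it was 0.519 in complex III, 0.462 in complex II, 0.358 in complex V, 0.346 in complex I and 0.267 in complex IV. Ndufa12, a complex I accessory subunit, followed the others most closely (mean correlation 0.537 with the other members) and then Uqcrq (0.511) and Ndufb10 (0.509). Atp5d, the gene with the clearest fall, hardly followed them (0.0058), and Cox4i2, Cox8b, Ndufa10 and Sdha ran against them (−0.188 to −0.108). Cox4i2 and Cox8b were dim, with a reference signal well above background on only 12 and 14 of the 20 arrays, so their correlations are uncertain. The members correlated with the neuron markers at a mean of 0.166, with the astrocyte markers at 0.237 and with the oligodendrocyte markers at 0.174. The first AP5 array was the lowest of the 20 for the members and for these marker lists. The correlations were not computed without it.

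NVP asked the same question at 100 nM, and none of the 81 genes passed against control, nor did any of the 19359 genes (0%), while 3 members and 1137 genes (5.87%) had an unadjusted p under 0.05. The members' median was −0.011 with 43 of 81 below 0 (54.6% of all genes were), and all genes had the same median. Under median centring 62 of 81 were below 0, against 60.3% of all genes. Ndufa10, an accessory subunit of complex I, had the lowest p, with 0.69, 0.63, 0.55, 0.64 and 0.50 on the NVP arrays, against 0.36, 0.11, 0.27, 0.52 and 0.23 on the control arrays. Its difference of 0.31 did not pass (unadjusted p = 0.0141, limma adjusted p = 0.721), and the groups overlapped. Uqcrc2 differed by 0.18 and Cox6b2 by 0.39 (limma adjusted p = 0.784 and 0.834).

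With Ro25 none of the 81 genes passed, against 3 genes of the array (0.0155%), and 0 members had an unadjusted p under 0.05, against 4.34% of all genes. The median was 0.0021 with 39 of 81 below 0, against 49.3% of all genes. With the scanner's signals 18 of 81 were below 0 (median 0.043), against 46.7% of all genes, and under median centring 23 of 81, against 47.4%. The lowest p was that of Atp5d, at −0.14 (SE 0.068, 95% interval −0.28 to 0.0019, unadjusted p = 0.0528, limma adjusted p = 1.00), in the direction of its AP5 difference. Cox6b2 stood at 0.34. On slide 4, the only one that held an antagonist together with control, 3 Ro25 arrays differed from the 1 control array by −0.10 for Atp5d and by a median of 0.0998 over the members. These intervals do not show that the subunits were unaffected: the median SE of a difference was 0.075 on the log2 scale.

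AP5 was then set against the other antagonists. These comparisons reuse the AP5 arrays, so their values stand beside each other and are not independent. Against NVP, 5 of 81 genes fell and none rose. Of all genes, 5.76% were called, and 3.08% of all genes were called lower. Atp5d differed by −0.38 (SE 0.068, 95% interval −0.53 to −0.24, limma adjusted p = 0.00148) and Ndufa5 by −0.25 (limma adjusted p = 0.0137), and in both every AP5 array lay below every NVP array. Ndufv1, which holds the flavin that takes electrons from NADH, had −0.08, 0.15, 0.06, 0.12 and 0.15 with AP5 and 0.33, 0.33, 0.36, 0.36 and 0.22 with NVP, again without overlap (difference −0.24, limma adjusted p = 0.0290).

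Ndufc2 differed from NVP by −0.31 (limma adjusted p = 0.0365) and Atp5k by −0.28 (limma adjusted p = 0.0400). Atp5k had 0.77, 1.03, 0.74, 0.98 and 0.91 with AP5 and 1.20, 1.08, 1.33, 1.30 and 0.93 with NVP, and only the fifth NVP array reached into the AP5 range. Without the first AP5 array, Atp5d (limma adjusted p = 0.00476) and Ndufa5 (limma adjusted p = 0.0357) still passed, and Ndufv1, Ndufc2 and Atp5k did not (0.0748, 0.0934 and 0.0899). Ndufa5 lost its call with the scanner's signals (limma adjusted p = 0.0745), on the first scan day (0.145), under median centring (0.991) and with slide as a fixed block (0.190). Slide 2 held the fifth AP5 array with 3 NVP arrays, and there the differences were −0.42 for Atp5d, −0.32 for Atp5k, −0.20 for Ndufa5, −0.19 for Ndufv1 and −0.07 for Ndufc2. AP5 arrays lay wholly below NVP arrays for 9 of 81 genes, against 3.74% of all genes.

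Against Ro25, none of the 81 genes passed, while 3.09% of all genes did, and 6 members had an unadjusted p under 0.05, against 13.2% of all genes. Ndufc2 was nearest at −0.29 (limma adjusted p = 0.0793) and Atp5d followed at −0.19 (limma adjusted p = 0.169). NVP and Ro25 differed in no gene of the array after adjustment (0%), with 6 members and 5.91% of all genes at an unadjusted p under 0.05.

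**Figure D4:**
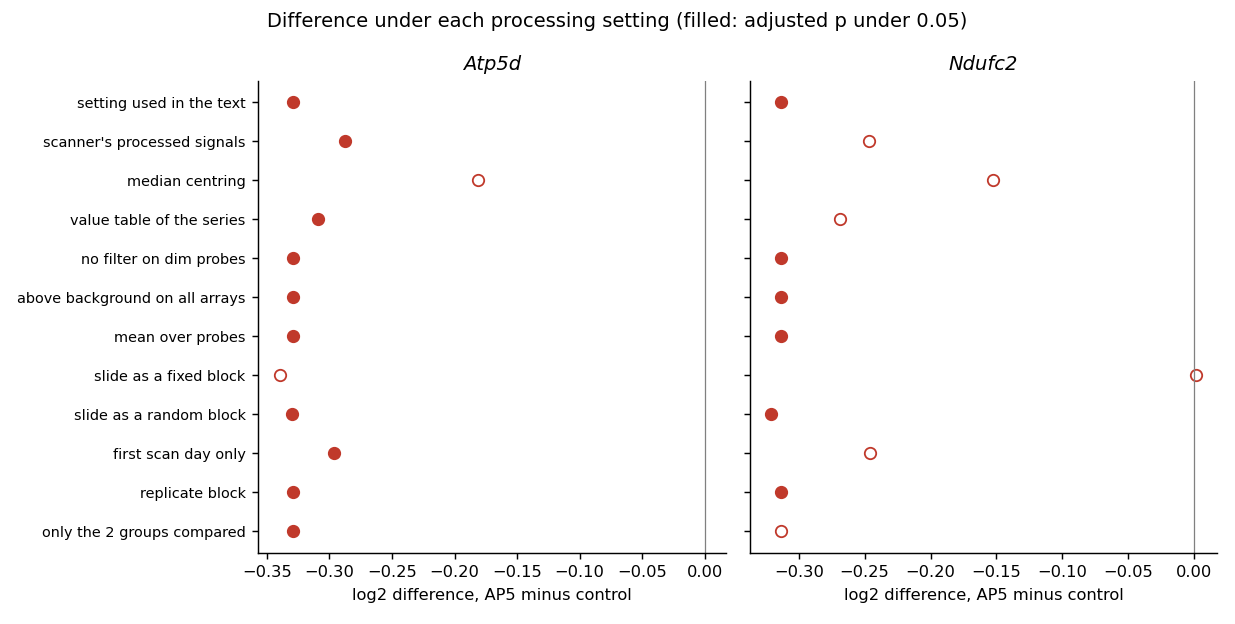
Log2 difference of AP5 minus control for Atp5d and Ndufc2 under each processing setting, with filled points for an adjusted p under 0.05. Atp5d stays between −0.34 and −0.18 and is open under median centring and the fixed slide block, and Ndufc2 lies at 0.0015 under that block.

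Several subunits exist as isoforms made from separate genes, and the ratios to the reference showed which were high or low relative to a pool of mouse RNA. Each ratio is set against the probe's own reference signal, so the ratios do not rank the isoforms' levels. In control arrays Cox6a1, the common isoform of subunit 6a, had the highest ratio of all members, 2.37 ± 0.09, and Cox6a2, the heart and muscle isoform, the lowest, −0.74 ± 0.65 (SD, n = 5 each). Next highest were Ndufc2 (2.04), Ndufa4 (2.03), Atp5g3 (2.00) and Ndufa13 (1.91), and next lowest Atp5g2 (−0.73), Cox4nb (−0.60), Ndufa6 (−0.48) and Cox7c (−0.21). The 3 genes of the identical mature c subunit thus had control ratios of 2.00 ± 0.13 for Atp5g3, 0.71 ± 0.08 for Atp5g1 and −0.73 ± 0.05 for Atp5g2 (SD, n = 5 each).

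Cox6b2, known from testis, had the most positive difference from control with each antagonist, 0.34 with AP5, 0.39 with NVP and 0.34 with Ro25, and passed in none (limma adjusted p = 0.349, 0.834 and 1.00). Its ratios were 0.77, 1.28, 0.90, 1.64 and 1.35 with AP5, 0.78, 1.5, 1.53, 1.31 and 1.07 with NVP, 0.96, 1.08, 0.88, 1.32 and 1.74 with Ro25 and 0.80, 1.04, 0.67, 0.71 and 1.04 in control. Each antagonist group reached above the highest control array and overlapped it below. The 3 differences share the same control arrays. Leaving out 1 array took the AP5 difference to 0.22 (without AP5 array 4) and the Ro25 difference to 0.21 (without Ro25 array 5).

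Cox6a2 spread most within groups. It had −1.81, −0.42, −1.44, −1.43 and −0.23 with AP5 and −1.18, −0.86, −1.48, −0.31 and 0.12 in control, and in each of the 4 groups 2 arrays lay above −0.5 and 3 below −0.8. Cox7a1, the heart isoform of subunit 7a, had an SD of 0.33 with AP5 and 0.36 in control, and its differences from control of −0.30 (AP5), −0.13 (NVP) and −0.10 (Ro25) did not pass. The AP5 difference of Cox7a1 was −0.18 without the first AP5 array. The ubiquitous Cox4i1, Cox6b1, Cox7a2 and Cox8a differed by −0.07, −0.07, −0.12 and −0.01 with AP5, and none passed.

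Cox4i2, the isoform of subunit 4 that responds to oxygen in other tissues, was dim. It was well above background on 2 AP5, 2 NVP, 0 Ro25 and 5 control arrays. For Ro25 its signal is therefore only a bound and no fold is given. The ratio's difference of −0.10 did not pass (limma adjusted p = 1.00). Cox8b, another muscle isoform, was above background on 4 AP5, 3 NVP, 5 Ro25 and 5 control arrays. Every other tested member was so on all 20 arrays.

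**Figure D5:**
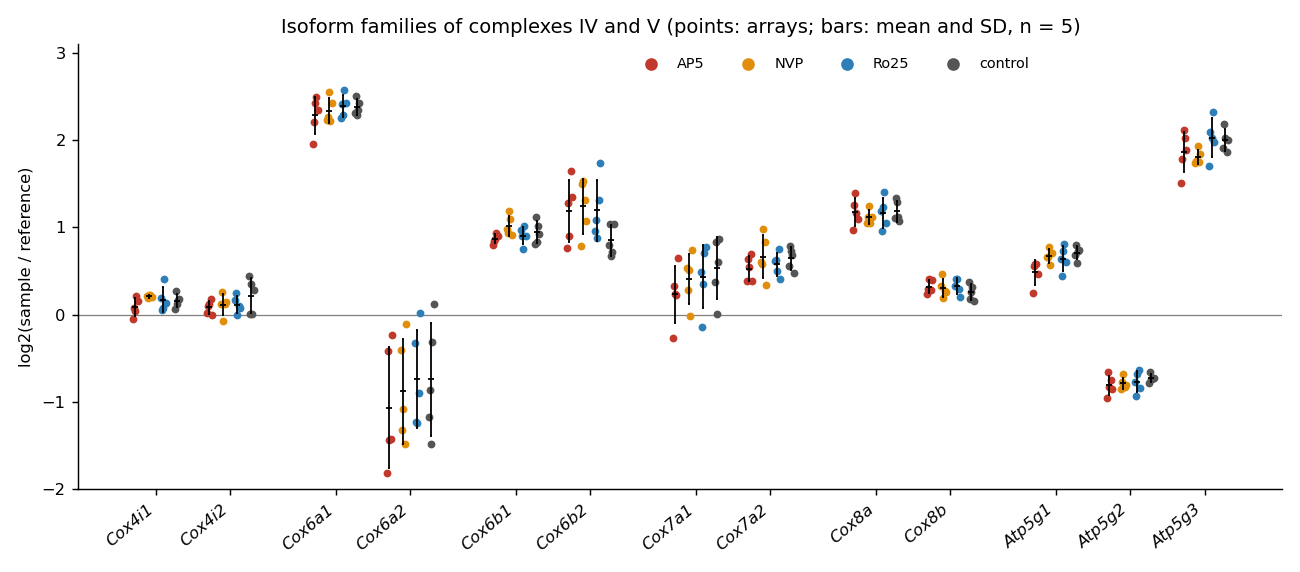
Log2 ratio of sample over reference on each array for isoform families of complexes IV and V, with AP5, NVP, Ro25 and control from left to right within each gene, points for arrays and bars for mean and SD (n = 5). Cox6a2 spans −1.81 to 0.12 over the arrays, while the Atp5g2 points lie between −0.96 and −0.63.

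For 20 members more than 1 probe was kept, and in 6 the probes differed in direction for AP5. In Cox4nb the brighter probe differed by −0.19 and the other by 0.26, and in Ndufa3, an accessory subunit of complex I, the brighter by 0.08 and the other by −0.19. Neither gene has a settled direction. Where the probes agreed in direction, their size could still differ. The probes of Uqcrq stood at −0.18 and −0.01, those of Sdha at 0.07 and 0.21 and those of Atp5f1 from −0.16 to −0.04. The 5 genes that passed in any comparison had 1 probe each.

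Genes that work beside the subunits were read from 5 further lists, to be set against the 6.11% of all genes called with AP5. Of 8 tested electron carriers, Cycs, cytochrome c itself, fell with AP5, by 0.40 on the log2 scale (ratio 0.29 ± 0.12 with AP5 and 0.69 ± 0.05 in control, SD, n = 5 each; limma adjusted p = 0.000335), which was larger than the fall of any subunit. Cycs also fell, by 0.35, without the first AP5 array (limma adjusted p = 0.000784), and Dhodh, which passes electrons from pyrimidine synthesis to ubiquinone, then passed, at 0.21 (limma adjusted p = 0.0399). The Cycs call was lost under median centring, at −0.24 (limma adjusted p = 0.951). With slide as a fixed block it was lost too, at −0.28 (limma adjusted p = 0.393). Cyc1, the cytochrome of complex III that hands electrons to cytochrome c, differed by −0.18 and did not pass (limma adjusted p = 0.344). Of 20 import and carrier genes, Tomm40, the channel of the outer membrane, fell with AP5 (difference −0.33, limma adjusted p = 0.0280). Leaving out any of 4 arrays ended that call, the first AP5 array among them (limma adjusted p = 0.0523), and without that array Slc25a27, an uncoupling protein, passed at 0.22 (limma adjusted p = 0.0368). The Tomm40 call was also lost with the scanner's signals (limma adjusted p = 0.0640) and on the first scan day (0.185). Only the 2 groups in the fit (limma adjusted p = 0.0871) and the array's number in its title as a block (0.0506) ended it too. So did median centring (0.928) and slide as a fixed block (0.297). None of 46 assembly factors, 22 regulators of mitochondrial biogenesis and 21 genes of the tricarboxylic acid cycle passed with AP5, and in all 5 lists none passed with NVP or Ro25. Among the regulators, Ppargc1a, the coactivator of mitochondrial biogenesis, differed by 0.12 with AP5, Nrf1 by −0.07, Gabpa by 0.04 and Tfam, the factor of mitochondrial DNA transcription, by −0.21.

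Of the other cell types' markers, Csf1r (microglia) rose with AP5 by 0.46, Kdr (endothelium) rose by 0.73 and Col1a2 (fibroblasts) fell by 0.25, in lists of 7, 5 and 7 tested genes of which no other member passed. Their lists did not move as one: 5 of the 7 microglia markers lay below control (median −0.05), 2 of the 5 endothelial markers did (median 0.03), and the fibroblast marker Dcn stood at 0.64 while 5 of 7 lay below control (median −0.09). The Csf1r call held whichever array was left out, the Kdr call was lost without any of 6 arrays and the Col1a2 call without any of 18, the first AP5 array among them (limma adjusted p = 0.105). Without that array Dcn passed, at 0.81 (limma adjusted p = 0.0349). With slide as a fixed block, Csf1r stood at −0.05, Kdr at −0.34 and Col1a2 at −0.45. None passed there (limma adjusted p = 0.924, 0.698 and 0.196). Under median centring Kdr passed (limma adjusted p = 0.0452), while Csf1r and Col1a2 did not (0.233 and 0.973). The mean over its probes gave Csf1r 0.27 (limma adjusted p = 0.0154). The part of these cell types in the subunits' differences was not tested. The members' mean correlation with the markers of these 3 types was 0.0375, −0.135 and 0.0852 over the 20 arrays.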

How the data were processed

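Genes, lists and tests were chosen with earlier results of these data known. The authors deposited scanner output of 2-colour Agilent arrays as spot intensity (per the file headers from Feature Extraction 10.7.3.1, and from 11.0 per the submitters' processing notes), with the scanner's log10 ratio per spot beside it. They also deposited a series table of log2 ratios, whose normalization no source used here states. In its columns, the slope against the scanner's log ratio was 0.779 to 0.821 and the correlation 0.973 to 0.984, which settles scale and direction but not centring. Depth has no meaning for arrays, and their number limits the precision.

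From the intensities, background was corrected by normexp (offset 50) and arrays were normalized by loess, leaving out control and outlier spots (43379 of 45018 spots were not controls). Kept probes had a red signal well above background on 5 or more arrays (28518 of 41174). Probes were named through RefSeq GRCm38.p6 (22951 by accession, 6659 by symbol and 3109 by synonym, while 8455 kept the file's name), and each gene was read from its brightest probe. One model with a mean per group (limma 3.58.1, R 4.3.3, data.table version 1.17.8, residual df 16) gave 6 two-sided comparisons, with Benjamini-Hochberg adjustment over 19359 genes at 0.05. On simulated data for AP5 against control (19323 genes) the fit called 41 of 100 genes changed 1.25-fold and 80 of 100 changed 1.5-fold, and 3.97% of calls were unchanged genes. The simulated noise was independent between arrays and held no slide effect.

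Named are all members past the threshold, the 3 of lowest p per complex with AP5 and overall with NVP and Ro25, isoform families, the 5 highest and 5 lowest control ratios and members whose probes disagree. Other members were named after their values were seen. Slides and scan days are those in the file headers (7 slides; 17 arrays on the first of 3 days). Title numbers were not taken to pair samples. Alternatives per complex and for the list genes were chosen after seeing the data. Sample columns not used numbered 0. A single-gene value that is withheld is not reported here.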

Additional observations from a re-analysis of the deposited data

Results flagged for a closer look

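In 5 of 128 sets of 5 arrays looked at (32 named genes in 4 groups) the highest or lowest array lay far from the other 4, where chance alone flags about 1 in 20. Ndufa5 was low on Ro25 array 3, at 0.844, while the other Ro25 arrays had 1.06 to 1.13. Ndufv1 was low on NVP array 5, at 0.225, with the other NVP arrays at 0.327 to 0.355. It was high on control array 4, at 0.340, with the other control arrays at 0.138 to 0.193. Uqcrq was high on NVP array 3, at 1.26 against 1.05 to 1.11, and Ndufa4 on control array 2, at 2.26 against 1.91 to 2.00.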

How the results depend on the processing

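Over the single genes and alternatives compared, 1317 values kept their direction and their side of the threshold or moved by less than the spread, 43 others moved, 57 no longer passed, 1 newly passed and 1 turned round. Atp5d kept its call against control and against NVP whichever of the 20 arrays was left out, and lost both with slide as a fixed block and under median centring, where it was −0.18 against control (limma adjusted p = 0.964). The value that turned round is Ndufc2 against control, 0.0015 with slide as a fixed block. Ndufa6 newly passed against control in the series' value table, at 0.21 (limma adjusted p = 0.0447).

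The 2 members called with AP5 against control became 1 with the scanner's signals, on the first scan day and with only the 2 groups compared, 0 with median centring and with slide as a fixed block, and 1 to 2 with 1 array left out. All genes called in that comparison were 1535 (800 higher, 735 lower), 912, 775, 165 and 41 under those 5 settings, against 1183 (489 higher, 694 lower). In the value table the 2 members were Atp5d and Ndufa6, and all genes were 576 higher and 593 lower, and on the first day 451 and 461. The 5 called with AP5 against NVP became 3 with the scanner's signals (Atp5d and Atp5k, and Atp5s, which rose by 0.20, limma adjusted p = 0.0395) and 3 in the value table (Atp5d, Atp5k and Ndufa5), 2 with only the 2 groups compared, 1 on the first scan day, 0 with median centring and with slide as a fixed block, and 2 to 6 with 1 array left out: 2 without AP5 array 1 or 3 or NVP array 1, 2 or 3, and 3 without NVP array 4. In AP5 against Ro25 the count was 0 to 1, with 1 without AP5 array 5. NVP against control, Ro25 against control and NVP against Ro25 had 0 under every alternative.

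The members' median difference with AP5 was 0.099 under median centring and −0.096 to −0.034 with 1 array left out, that of NVP −0.061 under median centring, 0.122 with slide as a fixed block and −0.031 to 0.019 with 1 array left out, and that of Ro25 0.0998 with slide as a fixed block and −0.039 to 0.028 with 1 array left out. The cause of these shifts was not tested. Title numbers were not taken as a pairing: 11 of 30 same-numbered pairs correlated above 0.1, namely all 6 pairs of number 5 and 5 of the 24 others. The 6 pairs of number 5 correlated at 0.568 to 0.763, and the 24 others at −0.447 to 0.506 (highest for NVP 1 with Ro25 1). Of 20 arrays, 4 correlated best with their own number. With the number as a replicate block, 2 members were called in AP5 against control, 4 in AP5 against NVP and 1 in AP5 against Ro25. With 5 arrays a group and a simulated recovery of 41 of 100 genes changed 1.25-fold, differences of the size seen here are at the limit of what these arrays call.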

Other observations

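Cox6a2 fell into a high and a low set of arrays that cut across the groups: 8 arrays lay between −0.42 and 0.12 and 12 between −1.81 and −0.86, with 2 high arrays in each group (AP5 arrays 2 and 5, NVP 1 and 5, Ro25 1 and 5, control 4 and 5). After removing group means, the 20 of 19322 genes that followed it most closely over the 20 arrays had correlations of 0.957 to 0.982, and 5 of them were olfactory receptor genes, against 2.34% of the genes compared. These 20 genes were mostly dim, with a median brightness percentile of 44.0 among tested genes, where Cox6a2 was at 81.5. Xist, chosen after its values were seen, was lowest on 4 of the same 8 arrays, 1 in each group (AP5 array 2, NVP 1, Ro25 1 and control 4), at −2.65 to −2.27, while the other 16 arrays had −1.40 to −0.61. The title numbers of these 4 arrays differ, and no label says that they share a culture. The 4 arrays numbered 5 all lie in the high Cox6a2 set.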
